A study of Drosophila melanogaster with 2 samples.

Results

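Binding of the tagged transcription factor Irbp18 was examined at 8 Drosophila genes of the amino acid stress response, out of 13968 protein-coding genes in the annotation. They are the stress kinases Gcn2 and PEK, the TOR pathway inhibitor Sesn, the translation inhibitor Thor, and the biosynthetic enzymes aay, AsnS, Cbs and P5cr. The genes were chosen by name with the binding values of these same data known, and some were picked for having high or low signal, so their values are a description and carry no test. All 8 symbols were found in the Ensembl annotation. For each gene, every peak summit inside the gene or within 2 kb of it was taken from the deposited lists.

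The study consists of 1 group with 2 biological replicates. Both came from whole embryos aged 0 to 24 h of a transgenic strain in which Irbp18, also called CG6272, is fused to enhanced green fluorescent protein, and chromatin was precipitated with an antibody against GFP. The values therefore average over all embryonic tissues and a full day of development, describe the tagged protein, and say nothing about RNA levels. No stressed embryos, untagged strain or control library were analysed here, so no comparison between conditions was made.

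When amino acids run short or unfolded proteins accumulate in the endoplasmic reticulum, the kinases Gcn2 and PEK phosphorylate the initiation factor eIF2. General translation falls while the bZIP factor ATF4, called crc in the fly, is made from its upstream-open-reading-frame-controlled mRNA. ATF4 pairs with C/EBP-type proteins on a composite element, the C/EBP-ATF response element (CARE), and activates genes for amino acid synthesis and for restraint of translation. Irbp18 is such a C/EBP-type bZIP protein and is known to pair with crc and with Xrp1.

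The DNA at the sites of the biosynthetic enzymes is shown first. Whether Irbp18 contacts any of the marked letters was not tested. The 3 conservative Sesn windows are not shown, and none of the motifs searched was found in them. Each window is centred on the summit of a binding site, meaning a peak that passed the authors' threshold on the irreproducible discovery rate (IDR), a measure of how well a peak recurs between the sets of peaks that an analysis compares. The IDR of a list that the files record for 1 replicate is not read here as recurrence in the other replicate. Sequences are read from the release 6 reference genome (dm6), 5′ to 3′ in the direction of the member gene. Capitals mark matches to the loose C/EBP patterns TTGCNNAA or TTACNNAA on either strand, or, in the P5cr stretch, to the promoter motif GGTCACAC (the Ohler 1 core). Annotated UTR bases were left out, which shortens the Cbs window to the bases upstream of its start and replaces the P5cr window by the gap between the starts of P5cr and its divergent neighbour GatA. The stretches are chr3L:9423025-9423125 for aay, chr3L:21172581-21172681 and chr3L:21171998-21172098 for AsnS, chrX:21045086-21045137 for Cbs and chr3R:19028858-19028930 for P5cr, all on the plus strand.
aay, summit 178 bp upstream of the start: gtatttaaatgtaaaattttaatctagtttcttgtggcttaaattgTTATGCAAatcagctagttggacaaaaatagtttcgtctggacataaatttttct
AsnS, summit 487 bp upstream of the start: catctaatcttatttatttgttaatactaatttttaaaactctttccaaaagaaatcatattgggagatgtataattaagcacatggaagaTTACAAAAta
AsnS, summit 1070 bp upstream of the start: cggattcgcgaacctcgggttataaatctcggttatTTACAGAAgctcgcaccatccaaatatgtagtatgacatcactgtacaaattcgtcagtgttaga
Cbs, upstream part of the window at the start: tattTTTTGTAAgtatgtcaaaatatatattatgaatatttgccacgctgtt
P5cr, gap between the GatA and P5cr starts: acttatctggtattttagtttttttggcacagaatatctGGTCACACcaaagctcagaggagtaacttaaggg

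The match in the aay window, TTATGCAA (TTGCATAA on the other strand), lay at the summit itself, from 4 bp before it to 3 bp after it. In the AsnS and Cbs windows the matches stood farther out. TTACAGAA lay 14 to 7 bp before the AsnS summit at -1070, TTACAAAA lay 41 to 48 bp after the AsnS summit at -487, and TTTTGTAA lay 46 to 39 bp before the Cbs summit. The GGTCACAC of the P5cr gap lay 34 to 27 bp upstream of the P5cr start, outside the window of its summit. These letters were in 0 of the 8 member summit windows, in 1.02% of all conservative sites and in 4.67% of 19630 windows of 101 bp around coding starts. The bases of the aay window and of the AsnS window at -487 were rich in A and T, with GC contents of 26.7% and 22.8%, both under the lower quartile of 29.7% over all sites, whose median was 36.6%.

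The full CARE, TGATGCAA or TGATGTAA on either strand, was found in 3 of the 8 loci, and none of the 3 copies lay at a binding site. They are shown with 10 bases on each side, the element in capitals, at chr3L:9422198-9422225 for aay, chr3L:21174442-21174469 for AsnS and chr2L:3479119-3479146 for Thor.
aay, centred 1041 bp upstream of the start: tagctataaaTTGCATCAgaatgtcgga
AsnS, centred 1338 bp downstream of the start: gttaaccatgTGATGCAAatccgaccgg
Thor, centred 611 bp downstream of a start: aatacctttcTGATGCAAcgcagaccac

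The aay copy lay in an intron of Atat, the gene for an alpha-tubulin acetyltransferase that overlaps aay on the opposite strand. It was 863 bp from the aay site and 56 bp from a candidate with a signal of 28.5 and an IDR of 0.475. The AsnS copy lay in the coding exon of AsnS, 1825 bp from the nearest site and 159 bp from a candidate with a signal of 29.5. The Thor copy lay in a Thor intron, 165 bp from a candidate with a signal of 34.0 and an IDR of 0.641. These candidates were far above the IDR limit of 0.01 that the sites met. The loci of Sesn, Cbs, P5cr, Gcn2 and PEK held no copy. Over all 8 loci the 3 copies came to 0.399 per 10 kb, against 0.658 per 10 kb over the chromosome arms. The longest locus, that of Sesn with 24.9 kb, held none, while aay, AsnS and Thor had 1.81, 1.71 and 1.93 per 10 kb. Resting on 3 copies, the difference from the arms was not tested, and nothing is read from it.

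Signal below is the authors' signal value of the peak. The sources used here state neither its exact quantity nor its scaling, and it is compared only within a list. For each replicate and for 2 pooled analyses, 1 of them called conservative, the deposited files hold the sites that passed and, separately, all ranked candidates. On the chromosome arms the conservative list held 3426 sites with a median signal of 121 and quartiles of 87.4 and 193. Replicate 1 had 2748 sites with a median of 83.5, and replicate 2 had 2003 sites with a median of 75.2. Peak lists carry no read counts, so the depth of the libraries is unknown. The conservative analysis ranked 129716 candidates on the arms, or 0.943 per kb, and the member loci held between 0.785 per kb at PEK and 1.93 per kb at Thor.

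Of the 8 genes, 5 had a conservative site in the gene or within 2 kb of it: Sesn, aay, AsnS, Cbs and P5cr. The same rule was met by 29.9% of all protein-coding genes. The same 5 genes had a conservative site within 500 bp of a transcription start, against 16.8% of all protein-coding genes. Since the genes were picked with these values known, nothing is read from the difference to the background. By role, 4 of 4 biosynthetic enzymes and 1 of 2 growth and translation inhibitors had a site, and neither of the 2 stress kinases had one. Some genes were picked for high or low signal, so nothing is read from this split by role either. In the single replicates, 6 of the 8 genes had a site in replicate 1, where Thor was added and 27.1% of all coding genes had one. In replicate 2 the count was 4 of 8, without P5cr and Thor, against 20.5% of all coding genes.

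**Figure D1:**
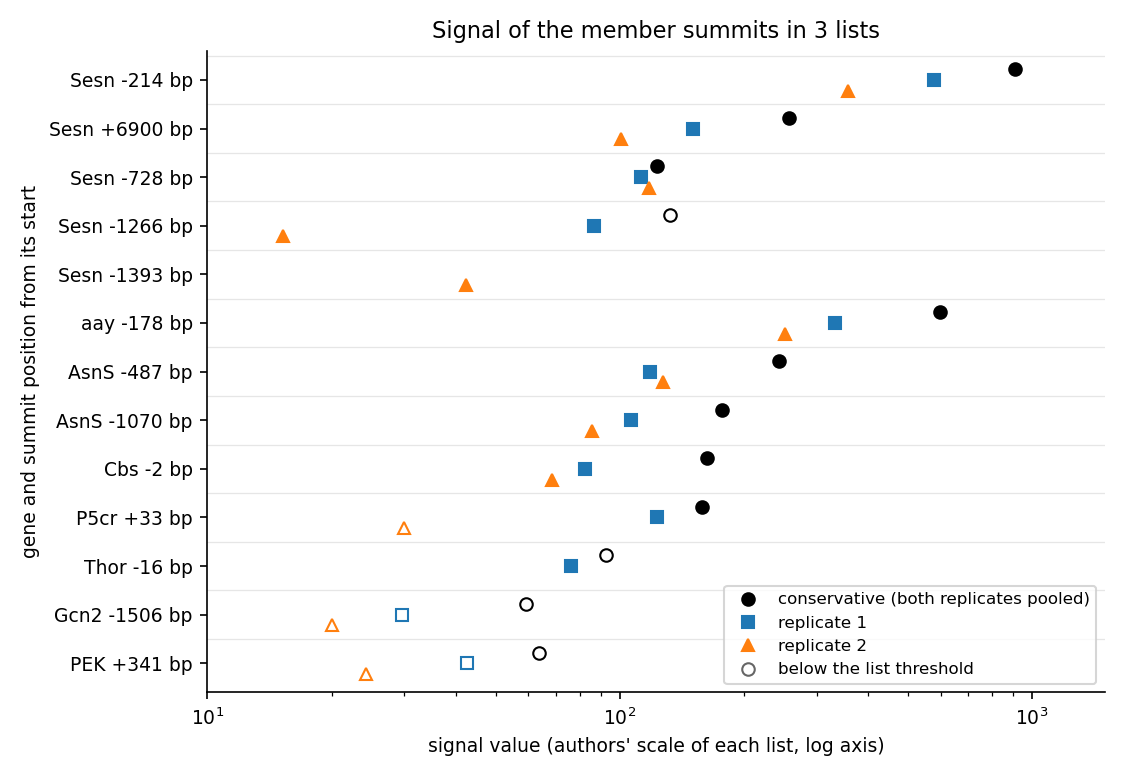
Signal of each member summit (log axis) in the conservative list and in the ranked list of each replicate, with filled symbols for summits that passed the list's threshold and open symbols for candidates that did not; a missing symbol means that no candidate summit lay within 100 bp. Rows are named by gene and distance from its nearest start in bp, and the sites at Sesn -214 and aay -178 stand to the right of the others in all 3 lists.

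Gcn2, the eIF2 kinase activated by uncharged tRNA, had no site in any list. The gene lies at chr3R:31395660-31402013 on the plus strand and is 6354 bp long. Its locus held 16 candidates in the conservative analysis. The highest had a signal of 59.4 and an IDR of 0.17, lay 1506 bp upstream of the start in a coding exon of the neighbouring gene Ugt35D1, and was matched by candidates of 29.6 in replicate 1 and 20.1 in replicate 2. Within 500 bp of the Gcn2 start the highest candidate had a signal of 28.2, which ranked 7799 among the 13968 coding genes. A strong site lay just outside the 2 kb limit. It had a signal of 1164, ranked 28 of 3426, and lay 2649 bp beyond the end of Gcn2 and 78 bp downstream of a start of PNPase, the gene for a polynucleotide phosphorylase.

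PEK, the eIF2 kinase of the endoplasmic reticulum known as PERK in mammals, also had no site in any list. It lies at chr3R:5458563-5464753 on the minus strand and has 3 annotated starts. Its highest candidate lay 341 bp downstream of one of these starts, in an intron, with a signal of 63.8 and an IDR of 0.0461 in the conservative analysis. Raising the IDR limit to 0.05 would admit it, giving 6 of 8 genes against 39.5% of all coding genes. The replicate values at the same place were 42.7 with an IDR of 0.115 and 24.2 with an IDR of 0.616, so neither replicate passed on its own. The nearest conservative site within 10 kb of PEK had a signal of 117 and lay 9946 bp upstream, near the starts of HDAC3 and CG45100.

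**Figure D2:**
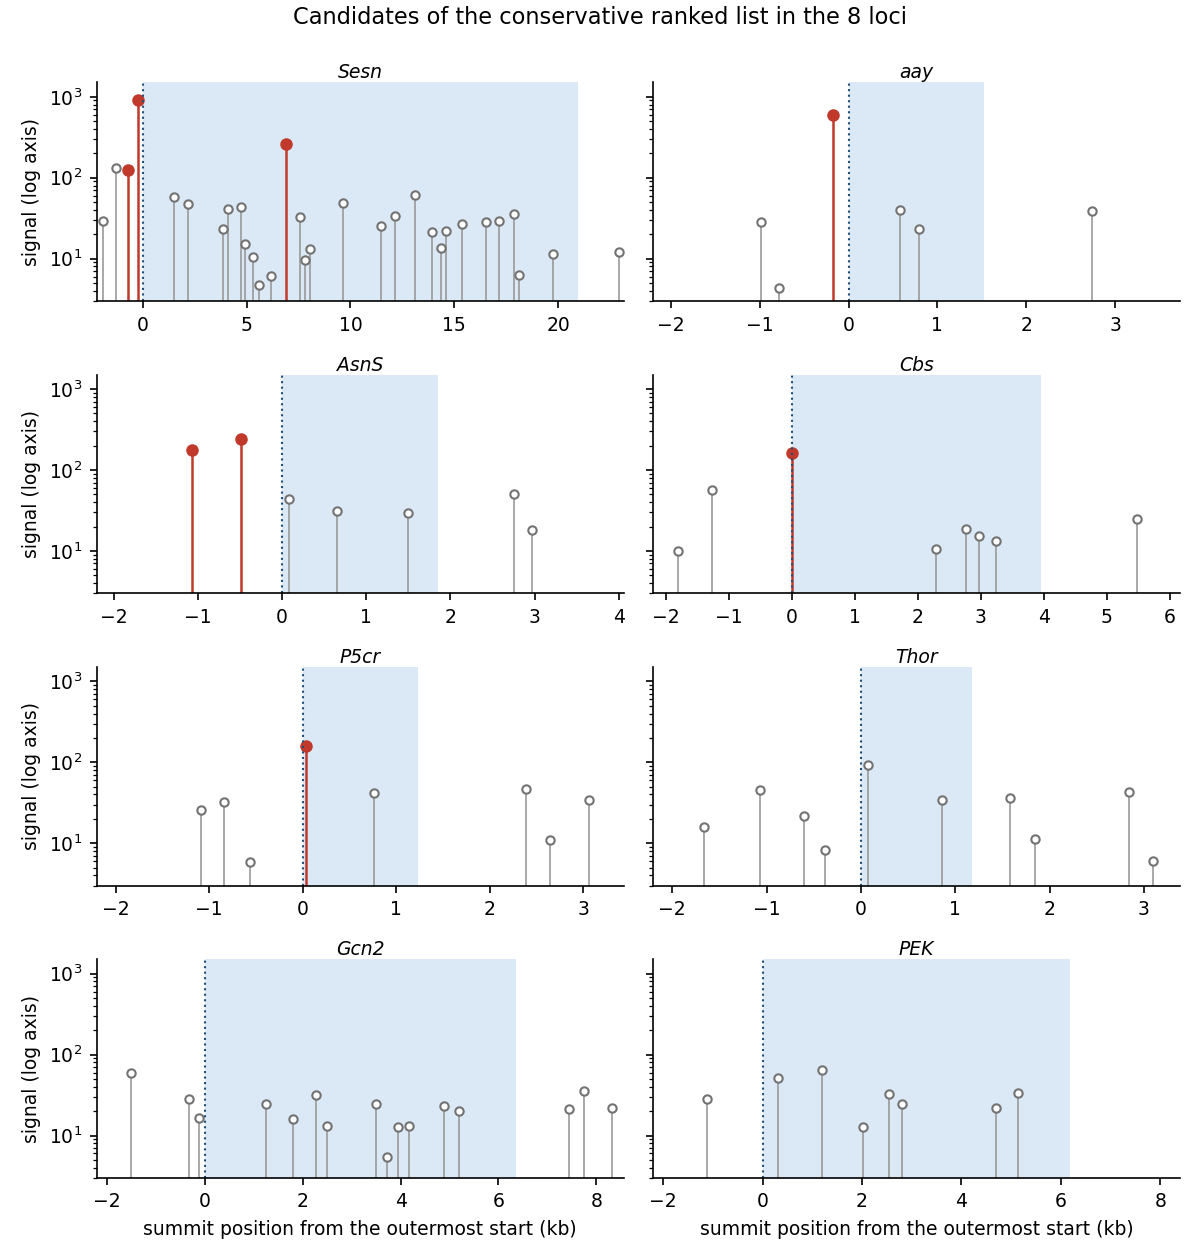
Candidates of the conservative ranked list in the 8 loci, plotted by distance from the outermost annotated start (kb, in the direction of the gene) and by signal (log axis). Candidates below the lower end of the signal axis, such as that of 2.13 at Sesn, are not drawn. Red filled points are sites and open points are candidates below the threshold, the shaded span is the gene and the dotted line its outermost start; 5 panels have a red point near the dotted line, and Thor, Gcn2 and PEK have open points only. For Thor and PEK, distances in the text are from the nearest of several starts.

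Sesn carried the strongest and the most numerous sites among the 8 genes. Sesn encodes sestrin, a stress-induced protein that restrains TORC1 and, in mammals, takes part in leucine sensing. The gene lies at chr2R:23713900-23734846 on the plus strand, is 20947 bp long against a median of 2164.5 bp for coding genes, and shares its only start with CG46429. The summit 214 bp upstream of that start, in the intergenic peak chr2R:23713512-23713814, had a signal of 910 in the conservative list, where it ranked 43 of 3426 and stood above 98.7% of sites. The replicate signals were 577, rank 38 of 2748, and 358, rank 51 of 2003. Both replicates placed the summit within 1 bp of the conservative one, and it stood above 98.6% of the sites of replicate 1 and 97.5% of those of replicate 2.

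Further Sesn sites were weaker. An intronic summit 6900 bp downstream of the start had a conservative signal of 258 at rank 533, with 151 in replicate 1 and 101 in replicate 2. It lay 207 bp downstream of the start of lncRNA:CR45325, a non-coding transcript inside the gene, so this site is nearer to that start than to the one of Sesn. A summit 728 bp upstream of the Sesn start had a conservative signal of 123, rank 1674, with 113 and 118 in the replicates. It stood above 51.1% of the conservative sites but above 68.2% and 76.7% of those of replicates 1 and 2, so its rank was higher in each replicate than in the pooled list.

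The summit at -1266 from the Sesn start was treated differently by the lists. Its pooled signal was 132, higher than that of the site at -728, but its IDR was 0.682 in the conservative analysis and 0.000738 in the other pooled analysis, so it passed only in the second. Replicate 1 had a signal of 86.6 there and passed. Replicate 2 had a passing summit 80 bp away with a signal of 15.2, above 2.15% of its sites, and a second passing summit at -1393 with a signal of 42.4. The position thus had a site in both replicate lists, at unequal rank and with its summit split in replicate 2. Counting the summits at -1266 and -1393 separately, Sesn had 4 summit positions upstream of its start and 1 in its intron that passed in some list. Over the 8 genes there were 11 such positions, counted in the same way.

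Thor, the fly 4E-BP, binds eIF4E and holds back cap-dependent translation, and is a known target of crc. It lies at chr2L:3478434-3479612 on the plus strand with 2 annotated starts. The highest candidate lay in its 5′ UTR, 16 bp upstream of the second start, with a pooled signal of 92.7. The IDR was 0.516 in the conservative analysis and 0.0129 in the other pooled analysis, where the limit was 0.01. In replicate 1 it passed with a signal of 76.1 and an IDR of 0.005, rank 1603 of 2748. Replicate 2 had no candidate within 100 bp, and its highest candidate in the Thor locus had a signal of 20.4. By IDR in the conservative analysis, the member just inside the threshold was P5cr at 0.00622 and the one just outside it was PEK at 0.0461, while in the other pooled analysis Thor missed it at 0.0129.

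Of the biosynthetic enzymes, aay had the strongest site. It encodes phosphoserine phosphatase, the last enzyme of serine synthesis, and lies at chr3L:9423253-9424781 on the plus strand. The summit 178 bp upstream of its start had a conservative signal of 597, rank 130 of 3426. Replicate 1 had 332 at rank 131 of 2748, and replicate 2 had 252 at rank 123 of 2003. The ranks were nearly equal in the 3 lists, and no other coding gene had a start within 500 bp. The other 5 candidates of the locus had signals between 4.31 and 40.4. A stronger conservative site, with a signal of 1863 at rank 7, lay 3625 bp downstream of the aay start and 120 bp upstream of a start of Atat, outside the 2 kb limit.

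AsnS, asparagine synthetase, makes asparagine from aspartate and glutamine. It lies at chr3L:21173118-21174973 on the plus strand and had 2 conservative sites, both upstream. The nearer, at -487, had a conservative signal of 244 at rank 587, with 119 in replicate 1 and 127 in replicate 2. The farther, at -1070, had 177 at rank 965, with 106 and 85.6. Neither summit had AsnS as its nearest start. The first lay 222 bp upstream of a start of chb, the gene for a microtubule-binding CLASP protein, within an intron of which AsnS lies. The second lay 118 bp upstream of Ac78C, an adenylyl cyclase gene. When each site was given to its nearest start only, AsnS lost its site and the count of members fell from 5 to 4.

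Cbs and P5cr had sites of middling signal at their starts. Cbs, cystathionine beta-synthase, joins serine and homocysteine in the transsulfuration pathway to cysteine, and lies at chrX:21045138-21049096 on the plus strand. Its summit lay 2 bp upstream of the start, with a conservative signal of 163 at rank 1101 and replicate signals of 82.6 and 68.6, which stood above 48.9% and 43.7% of the sites of their lists. P5cr, pyrroline-5-carboxylate reductase, performs the last step of proline synthesis and lies at chr3R:19028931-19030159 on the plus strand. Its summit lay in the 5′ UTR, 33 bp downstream of the P5cr start and 107 bp upstream of the start of GatA, a subunit of the glutamyl-tRNA amidotransferase. The conservative signal was 159 at rank 1149, but replicate 1 had 123 and passed while replicate 2 had 30.0 with an IDR of 0.0832 and did not. P5cr had the highest conservative IDR of the 8 member sites, 0.00622, against 0.000422 at Cbs.

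**Figure D3:**
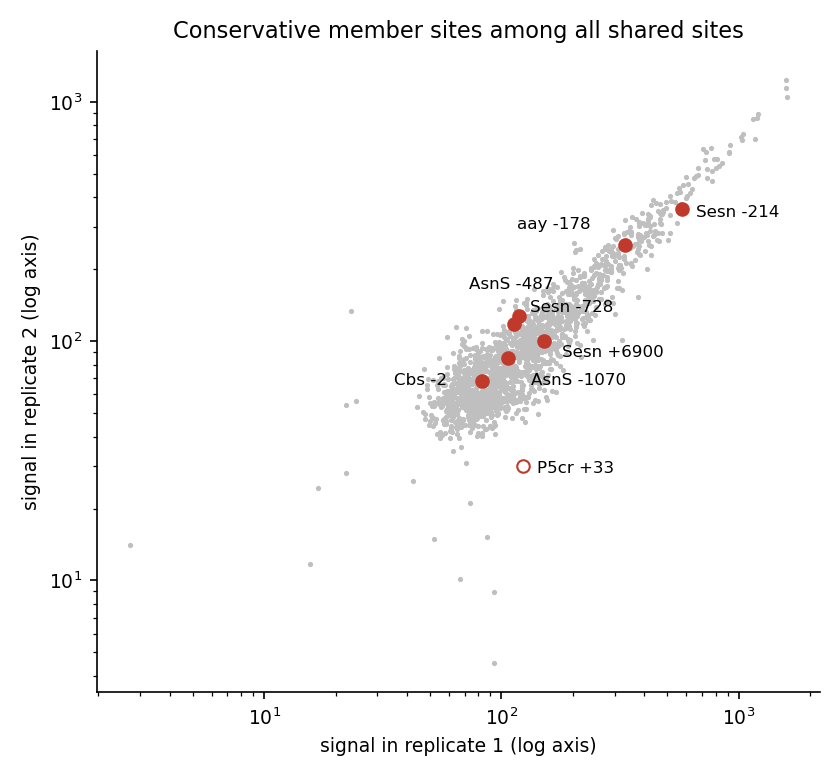
Signal in replicate 1 against signal in replicate 2 (log axes) for all sites with summits within 100 bp of each other in both replicate lists (grey), with the 8 conservative member sites in red. The open point is P5cr +33, whose replicate 2 candidate of 30.0 did not pass. The other 7 passed in both replicate lists, so they belong to the grey set by its definition.

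Ranked by the highest candidate within 500 bp of a start, among 13968 coding genes of which 10546 had any candidate there, Sesn stood at 50, aay at 139, AsnS at 600, Cbs at 1014 and P5cr at 1043. Thor stood at 2012, PEK at 3062 and Gcn2 at 7799. The order Sesn, aay, then the others was the same in both replicates. Cbs and P5cr, whose conservative signals were 163 and 159, changed places between replicates and cannot be ordered. P5cr and AsnS also changed places, since in replicate 1 P5cr at 123 exceeded AsnS -487 at 119. The median over the 8 genes was 161, against 32.6 over all coding genes with a candidate there, a gap that follows the choice of the genes and is not tested.

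Among the 8 conservative member sites, 0 held a CARE within 50 bp of the summit, against 0.584% of all conservative sites. With a background this low, 0 of 8 windows does not set the members apart from other sites. The C/EBP palindrome TTGCGCAA, the cyclic AMP element TGACGTCA, the AP-1 element TGACTCA, the PAR-type palindrome TTACGTAA and the DRE TATCGATA were likewise in 0 of 8 windows, against 0.175%, 0.117%, 0.934%, 0.175% and 3.47% of all sites. The loose C/EBP patterns were in 4 of 8, namely aay, both AsnS sites and Cbs, against 16.7% of all sites and 12.5% of windows around coding starts. The AsnS windows come from the same locus, and the shares over all sites and start windows were not matched for GC content. Members and motifs were chosen with earlier results of these data known, so this difference was not tested. The windows of the 3 conservative Sesn sites held none of the motifs searched, although Sesn -214 was the strongest member site. The E-box CAGCTG was in 1 of 8, 31 to 36 bp after the P5cr summit, against 3.97% of all sites. Of the windows below the conservative threshold, Thor held TTGTGTAA, a loose match 19 to 26 bp after its summit, and those of Gcn2 and PEK held no match.

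The other genes of these pathways were taken from 7 lists holding 84 genes found in the annotation, 76 of them not members. Of these 76 genes, 14 (18.4%) had a conservative site within 500 bp of a start, close to the 16.8% of all coding genes. Another 14 had one only elsewhere in the gene or within 2 kb. By that wider rule 28 of the 76 genes had a site, against 29.9% of all coding genes, a difference that was not tested. The median of the highest candidate at a start was 40.0 over those of the 76 genes with a candidate there, against 32.6 over all such coding genes. The corresponding median of 161 over the members was higher, and since they were chosen with their signal known that difference has no test.

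In integrated stress response signalling, 3 of 17 further genes had a site at a start, against 16.8% of all coding genes. Irbp18 itself had a summit 178 bp upstream of its start, shared with APP-BP1, with a conservative signal of 355 and replicate signals of 231 and 111. MCTS1, a translation reinitiation factor, had 123 at a summit shared with rux. NAT1, an eIF4G-like initiation factor, had 94.2 and passed in replicate 1 but not in replicate 2. Xrp1, the partner of Irbp18, PPP1R15, the phosphatase subunit that reverses eIF2 phosphorylation, and trbl, a tribbles pseudokinase, had a conservative site in the gene or within 2 kb but none within 500 bp of a start. The same held for eIF2beta, eIF2Bbeta and eIF2Bgamma. By the 2 kb rule 9 of the 17 genes had a site, against 29.9% of all coding genes, a difference that was not tested. PPP1R15 had a passing replicate 1 site at a start, with a signal of 65.6. The gene for crc had no conservative site by either rule.

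Among the amino acid enzymes outside the members, a conservative site at a start was found for 1 of 7 genes of the serine, glycine and one-carbon list, 1 of 7 of the asparagine, aspartate, glutamate and alanine list, 2 of 5 of the proline and ornithine list, and 1 of 7 of the sulfur amino acid and glutathione list. Over all coding genes this share was 16.8%, and no difference from it was tested. CG1640, an alanine aminotransferase, had 235 in the conservative list and 133 and 101 in the replicates, close to AsnS. P5CDh1, which breaks down the same intermediate that P5cr uses to make proline, had 188, with 95.5 and 93.0, and P5cr-2, a second gene for the reductase, had 68.7 at a site shared with CG5823 that was in neither replicate list. Gclm, the modifier subunit of glutamate-cysteine ligase in glutathione synthesis, had 133 at a site shared with CG17625 that passed in replicate 1, with 88.8, but not in replicate 2. Nmdmc, a mitochondrial folate enzyme, had 109 at a site shared with Mst85C and Rel that was in neither replicate list.

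In the TOR list, 4 of 23 further genes had a site at a start, and in the amino acid transporter list 2 of 10. The share over all coding genes was 16.8%, and no difference from it was tested. REPTOR, a bZIP factor that acts when TORC1 is low, had a conservative signal of 484 at rank 180, with replicate signals of 274 and 199. Wdr24, a GATOR2 subunit, had 291 at a summit shared with IntS11. Rheb, the GTPase that activates TORC1, had 159 at a summit shared with CG2931, and Iml1, a GATOR1 subunit, had 143. Among 10 amino acid transporters, gb, a cystine and glutamate exchanger, had 256 at a summit shared with CG5815, and sbm, another transporter, had 149. None of these values reached the 910 of Sesn or the 597 of aay.

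**Figure D4:**
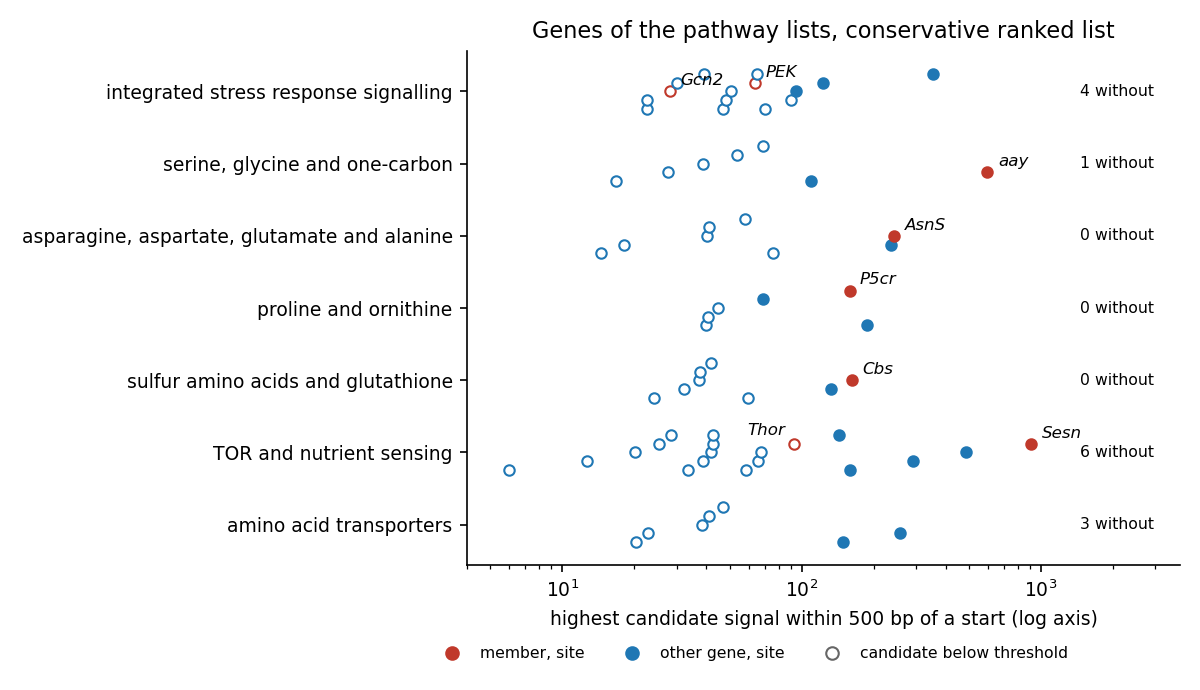
Highest conservative candidate within 500 bp of a start (signal, log axis) for each gene of the 7 lists, members in red and other genes in blue. Filled points are sites, open points are candidates below the threshold, and the number at the right counts genes without a candidate there; Sesn and aay are the points farthest to the right.

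For the 4 members with a site at a start in all 3 lists, the coding genes of most similar signal were found by Euclidean distance over the log10 signals of the conservative list and both replicates, among 1362 genes. Nearest to Sesn were Reps and l(2)gd1, which share a site with signals of 921, 542 and 381, then CG1792. Nearest to aay were Bdp1 and CG6565, which share a site with 601, 345 and 255, then Cyp6u1. Nearest to AsnS were Pex23 and SCCRO4, again at a common site, then CG6927, and nearest to Cbs were CG10038, Cerk and Rdh1. None of these 12 genes is on the 7 lists. The likeness is of peak signal alone.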

How the data were processed

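The 2 samples are ChIP-seq libraries, biological replicates 1 and 2 by the labels. The authors deposited peak lists on dm6, per the labels. The authors deposited a score per peak that takes whole values up to 1000 and has no unit. Peak signal is likewise as the authors deposited it, in a scaling no label states. The ranked lists deposited by the authors also give the global IDR as −log10, here converted to IDR. The aligner and the caller's name were not given in the sources used here. Ranked-list values of single sets that no name ties to a replicate were not used.

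Sites were thresholded peaks at their summits on the main chromosome arms, the fourth chromosome and Y. Genes came from Ensembl BDGP6.54, release 115, and sequence from the RefSeq release 6 assembly. Summits of different lists were matched within 100 bp. Signal was ranked within a list only. Motifs were counted on both strands in windows of 101 bp. Of the listed pathway symbols, 3 were matched by synonym and 1 was not matched. Members, lists and motifs were chosen with earlier results of these data known, so no test was made. Named genes were the members, coding genes with a start within 500 bp of a member site, up to 4 genes per list with the highest signal at a start, and the 3 genes nearest in signal to each member with a site at a start in all lists. Xrp1, PPP1R15, trbl, eIF2beta, eIF2Bbeta, eIF2Bgamma, crc and the owners of strong sites outside the 2 kb limit were named after their values were seen. Alternatives covered the list, IDR limit, distances, nearest start and window. Position matching was tested on simulated data. Python 3.11.15, numpy 2.4.6, pandas 2.3.3 and matplotlib 3.10.9 were used.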

Additional observations from a re-analysis of the deposited data

How the results depend on the processing

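Only 2 of the 8 genes, Sesn and P5cr, held a conservative site inside the gene itself (0 bp around it), and 3, aay, Cbs and P5cr, had one within 200 bp of a start. Under the other settings the count with a site in the gene or within 2 kb, 5 in the conservative list, lay between 4 and 6, as did the count at starts. Using 1 replicate at a time, it was 4 in replicate 2 and 6 in replicate 1. The share of all coding genes with a site in the gene or within 2 kb was 20.5% to 27.1% in single replicates. It was 39.5% with an IDR limit of 0.05, 25.1% at the top score of 1000, 9.66% inside the gene, 22.4% within 500 bp, 41.8% within 5 kb, and 16.3% when each site went to its nearest start. The share with a site at a start was 11.0% to 15.4% in single replicates, 21.1% with an IDR limit of 0.05, 12.4% within 200 bp and 12.2% by nearest start. The count of member sites with a CARE or C/EBP palindrome was 0 under all settings run. No paired analysis was possible because the study has 1 group. With 2 replicates and no read counts, the depth behind a weak candidate such as those at Thor, PEK and Gcn2 is unknown.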
